A study of Mus musculus with 13 samples.

Results

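The genes described here code for subunits of the proteasome, its activators and the chaperones that assemble it. They were chosen by name: every gene whose symbol in the platform annotation begins with Psma, Psmb, Psmc, Psmd or Psme. The rule found 42 genes with 53 probe sets that were annotated to a single gene, out of 8251 such genes on the array, and each gene was represented by the probe set with the highest mean. Of the 42 genes, 41 passed a filter on dim signal that 5655 genes passed in all. The exception was Psmc3ip, which lay at the floor of measurement in all 12 pools. Psmc3ip codes for a partner of meiotic recombinases and carries the prefix by name only, as does Psme3ip1, which codes for a protein that binds the activator PA28 gamma. A pair of probe sets for Psme2 is annotated to Psme2b as well. Both stayed in the tests under their identifiers and were not counted as members.

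The proteasome is the barrel-shaped protease that degrades ubiquitin-tagged proteins in the cytosol and nucleus. Its core particle, 20S, stacks outer rings of alpha subunits, which gate the entrance, on inner rings of beta subunits, of which Psmb5, Psmb6 and Psmb7 carry the active sites. The regulatory particle, 19S, binds, unfolds and feeds in the substrate with a ring of ATPases (the Psmc genes) and a set of non-ATPase subunits (Psmd genes). In lymphoid cells, and in other cells after interferon gamma, the inducible subunits Psmb8, Psmb9 and Psmb10 replace the constitutive active sites and form the immunoproteasome, which favours peptides for presentation on class I molecules.

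The samples were aortae of C57BL/6 mice with no genetic change or treatment named in the labels. All mice were entrained for 2 weeks to 12 h light and 12 h dark and released into constant darkness, which lasted 36 h before aortae were collected every 4 h over 48 h. Each time point, labelled with its circadian time (CT), was 1 pool of 6 aortae hybridised to a one-colour oligonucleotide array, and the 12 pools run from CT18 to CT62. The exception was CT18, which had 2 arrays that were averaged as 1 pool, since the labels do not say whether they came from the same pool. The sources used here do not give the age or sex of the mice. CT18 to CT38 are called the first day below and CT42 to CT62 the second day, so that each circadian time was sampled once on each day.

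Values are array intensities as deposited, with values below 36.7 set to that floor. Tests were made on the log2 scale. Smooth muscle markers were high in every pool: Acta2 lay between 3777 and 6848 and Myh11 between 1351 and 1957. Markers of other tissues differed widely between pools, with the summed intensity of 12 thymocyte and T cell markers between 1765 and 5570 and that of 14 skeletal muscle markers between 8596 and 40481. The share of readings at or below 0 was 21.3% to 24.2% per array, and the ratio of 3′ to 5′ signal of actin was 1.64 to 2.21. The CT18 arrays correlated at r = 0.944 across probe sets, against a median of 0.918 and a highest value of 0.949 for other pairs of arrays. In pooled tissue, fewer cells of a type and less RNA per cell cannot be told apart.

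No proteasome gene passed the test for a 24-h rhythm, and many members had a narrow range over the pools. The highest pool was at most 1.5 times the lowest in 16 of 41 members, against 17.7% of all genes that passed the filter. A range of at least 2-fold was found in 14 of 41 members, against 52.2% of all genes, and the widest was that of Psme3, at least 8.36-fold with its lowest pools at the floor. The median SD over the 12 pools was 0.21 log2 for the members and 0.32 for all genes. The members were also bright, with a median intensity of 550 against 212 for all genes, and brighter genes had a smaller spread. Across genes, the correlation of SD with mean log2 intensity was r = -0.75 over the 41 members and r = -0.47 over the 5655 genes, which are not independent replicates. How far brightness accounts for the narrow range of the members was not tested. At CT18 the difference between the arrays had a median of 0.15 log2 in the members, not far below their median SD over the pools.

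**Figure D1:**
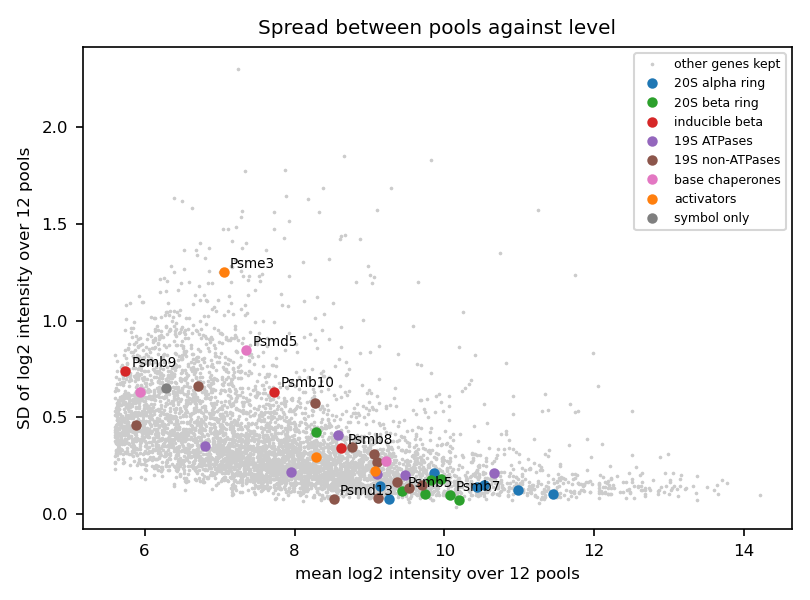
Spread between pools against level, with the mean log2 intensity of a gene over 12 pools on the x axis and the SD of its log2 intensity over the same pools on the y axis. Grey points are the other genes that passed the filter and coloured points the 41 proteasome genes by class; most members lie low and to the right, with Psme3, Psmd5, Psmb9 and Psmb10 well above the median SD of 0.21.

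A cosine of 24-h period was fitted to the 12 pools with limma, and its amplitude, the distance from mean to peak on the log2 scale, was tested with Benjamini-Hochberg adjustment over all 7453 probe sets that passed the filter, at a threshold of 0.05. Of the 41 members 0 passed, where 26 of all probe sets did (0.349%). At an unadjusted p below 0.05 limma gave 1 member, against 742 probe sets (9.96%), and the ordinary F test with adjustment gave 0 members and 4 probe sets (0.0537%). The median amplitude was 0.13 in the members and 0.18 in all genes. Each time point was 1 pool, so the p-values reflect how far single pools scatter about the fitted curve. The SE of the fit gave an upper 95% limit of the amplitude for the probe set used. The peak was taken at its fitted time. This limit lay below 0.5 in 29 of 41 members and in 55.5% of all genes. For the other 12 members a larger amplitude was within the error. The limit does not cover other probe sets of a gene. A second probe set of Psmb1 had an amplitude of 0.36, above the limit of 0.28 for the one used. For Psmc3 another probe set had 0.62 against a limit of 0.31, while 1 of Psmd11 had 0.11 against 0.23.

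**Figure D2:**
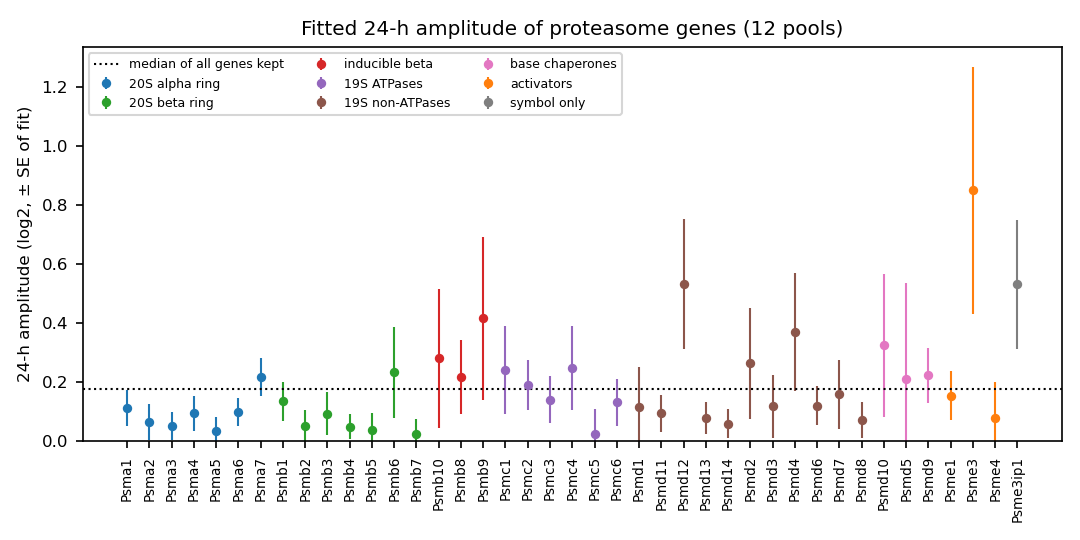
Fitted 24-h amplitude of each proteasome gene (log2 units, points) with the SE of the fit over 12 pools (bars), coloured by class, and the median of all genes that passed the filter as a dotted line at 0.18. Most core and regulatory particle genes lie below the line, and the widest bars belong to Psme3, Psmd5 and Psmb9.

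The 7 alpha ring genes, which form the gate of the core particle, had a median amplitude of 0.09, the lowest being 0.03 and the highest 0.22. Psma7 had the smallest p of all members. Its intensities were 763, 833, 997, 998, 885 and 1054 in the pools from CT18 to CT38, and 831, 707, 962, 1051, 1118 and 1074 from CT42 to CT62. The pools at circadian times 18 and 22 h were the 4 lowest on both days together, and the pools at the other circadian times did not overlap with them. Mean intensity was 797 ± 48.4 at 18 h and 770 ± 88.4 at 22 h, and 1064 ± 14.2 at 14 h (SD, n = 2 pools each). The fitted amplitude of Psma7 was 0.22 ± 0.06 (SE), with a peak at 8.73 h, and did not pass the test (limma, adjusted p = 0.378; unadjusted p = 0.0172). Psma6 followed with an amplitude of 0.10 ± 0.05 (limma adjusted p = 0.656). Its pools ran from 1667 at CT18 through a median of 2049 to 2218 at CT62. The narrowest range of the class was that of Psma5, from 570 to 663.

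The 7 constitutive beta ring genes had the lowest medians of any class, 0.05 for the amplitude and 0.12 log2 for the SD over the pools. For the probe sets used, the highest pool exceeded the lowest by at most 1.5-fold in 6 of the 7. Psmb4, a structural subunit of the ring, ran only from 1103 to 1267. Psmb5, which carries the chymotrypsin-like site, ran from 616 at CT34 to 792 at CT50, with an amplitude of 0.04 ± 0.06. Psmb7, which carries the trypsin-like site, ran from 944 at CT30 to 1193 at CT62, with an amplitude of 0.03 ± 0.05. Their upper 95% limits were 0.17 and 0.13. The probe sets used for Psmb4, Psmb5 and Psmb7 carry a mark of the array's design for possible cross-hybridisation, as do those of Psma3, Psmc3, Psmd9 and Psmd12, so their values may include other transcripts. The other probe set of Psmb5 has no such mark and ran from 124 to 287, with an amplitude of 0.21 and r = -0.47 with the one used. For Psmb4, a dimmer probe set without the mark also passed the filter. It ran from the floor to 262, with an amplitude of 0.35 and r = -0.41 with the one used, so the narrow range of Psmb4 rests on the marked probe set. Psmb6, which carries the caspase-like site, was the exception: it ran from 195 at CT46 to 481 at CT58, a 2.47-fold range, and was also low at CT30 (197) and CT18 (221). Its amplitude was 0.23 ± 0.16 (limma adjusted p = 0.761), and the CT18 arrays read 275 and 178. Psmb1 had an amplitude of 0.14 ± 0.07 with an adjusted p of 0.649 by limma, and ran from 753 to 1089. Its second probe set, of like brightness (median 874 against 896) and without the mark, ran from 595 to 1076 with an amplitude of 0.36. The narrow range of Psmb1 thus rests on the probe set used.

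The 3 inducible subunits had a median SD over the pools of 0.63 log2, against 0.12 in the 7 constitutive beta ring genes. That difference was not tested. The SD was 0.34 in Psmb8 against 0.12 in Psmb5, and 0.74 in Psmb9 against 0.42 in Psmb6. It was 0.63 in Psmb10 against 0.095 in Psmb7, and Psmb8 spread less than Psmb6. The inducible genes were also dimmer, with a median intensity of 212 against 904. Their CT18 arrays differed by a median of 1.26 log2, against 0.18 in the constitutive genes. Those of Psmb8 were close, at 452 and 445. Psmb8, which takes the place of Psmb5, read 448, 439, 350, 433, 352 and 430 on the first day and 216, 373, 461, 582, 401 and 367 on the second. CT42 was the lowest pool and CT54 the highest, a 2.69-fold range. Psmb9, which replaces Psmb6, was at the floor in 7 of 12 pools: CT26 to CT46 and CT62. It reached 56.8 at CT18, 75.2 at CT22, 101 at CT50, 151 at CT54 and 92.2 at CT58. At CT18 this mean came from 1 array at 87.9 and 1 at 16.8, below the floor, so the level of Psmb9 was near the limit of measurement there.

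Psmb10, which replaces Psmb7, read 193, 137, 158, 283, 186 and 88.1 on the first day and 192, 507, 260, 248, 293 and 235 on the second. CT38 was the lowest pool and CT46 the highest, a 5.76-fold range, but the CT18 arrays alone read 303 and 123. Fitted amplitudes were 0.22 ± 0.12 for Psmb8, 0.42 ± 0.28 for Psmb9 and 0.28 ± 0.24 for Psmb10, with adjusted p of 0.707, 0.759 and 0.830 by limma.

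**Figure D3:**
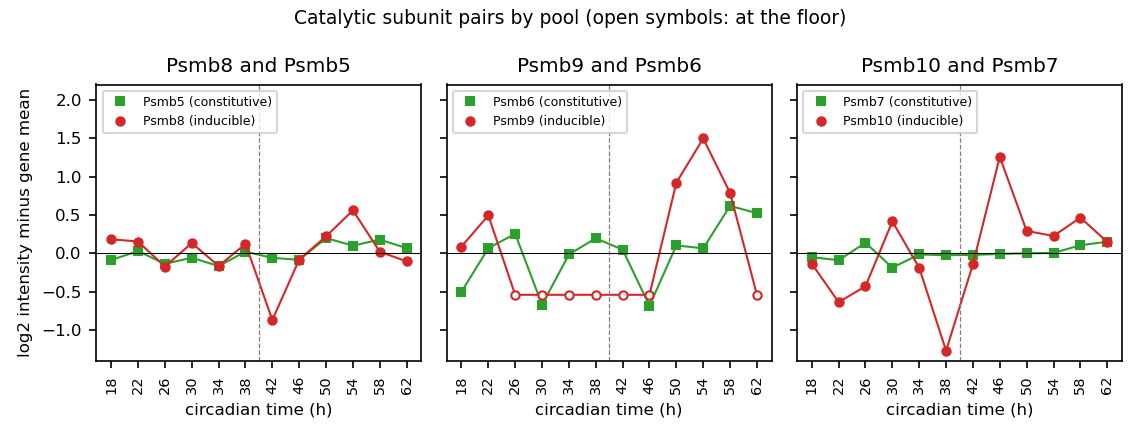
Log2 intensity minus the mean of the gene over 12 pools (y axis) against circadian time in hours (x axis) for each inducible catalytic subunit (circles) and the constitutive subunit it replaces (squares); the dashed line divides the days and open symbols are pools at the floor. Psmb5 and Psmb7 stay close to their means, while Psmb8 falls at CT42, Psmb9 leaves the floor mainly from CT50 to CT58 and Psmb10 peaks at CT46.

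The 250 bases before the start of these genes are shown because inducible and constitutive catalytic subunits replace each other at the active sites. The sequences are those of RefSeq for mouse assembly GRCm38.p6, which held a promoter for 36 of the 42 genes. Psmb7 was not among them, and the window of Psmb6 is not shown because it overlaps the annotated span of that gene. Psmb8 lies at chr17:34197945-34198194 on the plus strand, Psmb5 at chr14:54617996-54618245 on the minus strand, Psmb9 at chr17:34187331-34187580 on the minus strand, where its far end overlaps the start of Tap1, and Psmb10 at chr8:105938393-105938642 on the minus strand. Each reads 5′ to 3′ along its gene and ends at the base before the start. Capitals mark matches, on either strand, to the motifs named after the sequences.
Psmb8: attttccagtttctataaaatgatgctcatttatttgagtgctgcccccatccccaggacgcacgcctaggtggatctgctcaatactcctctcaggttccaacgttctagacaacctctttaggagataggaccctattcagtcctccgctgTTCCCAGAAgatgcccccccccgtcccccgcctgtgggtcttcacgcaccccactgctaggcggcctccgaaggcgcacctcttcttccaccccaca
Psmb5: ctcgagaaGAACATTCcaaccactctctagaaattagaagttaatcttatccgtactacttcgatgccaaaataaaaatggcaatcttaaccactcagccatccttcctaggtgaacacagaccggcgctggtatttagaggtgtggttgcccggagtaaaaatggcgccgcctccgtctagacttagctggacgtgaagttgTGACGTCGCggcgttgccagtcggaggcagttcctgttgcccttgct
Psmb9: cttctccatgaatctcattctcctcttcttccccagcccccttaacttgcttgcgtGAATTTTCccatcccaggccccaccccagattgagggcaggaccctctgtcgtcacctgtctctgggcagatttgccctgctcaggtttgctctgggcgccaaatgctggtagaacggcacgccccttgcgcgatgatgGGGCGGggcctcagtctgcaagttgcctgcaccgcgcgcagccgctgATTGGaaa
Psmb10: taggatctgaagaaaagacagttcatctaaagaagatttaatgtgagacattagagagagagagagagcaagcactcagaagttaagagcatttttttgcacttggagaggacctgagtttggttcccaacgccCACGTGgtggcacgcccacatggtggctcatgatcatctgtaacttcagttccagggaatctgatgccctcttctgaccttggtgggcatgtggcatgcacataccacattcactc
The Psmb8 window held 1 match to the STAT site TTCNNNGAA, 97 to 89 bases before the start. It was the only match among the 36 members, and 7.18% of all 27025 RefSeq promoters of this length held one. The Psmb10 window held the E-box CACGTG, the site bound by the clock activators, 116 to 111 bases before the start; 6.05% of all promoters and 4 of 36 members (Psma4, Psmb10, Psmd9 and Psme3) held one. The Psmb5 and Psmb6 windows each held an antioxidant element, TGACNNNGC, as did 5 of 36 members and 10.1% of all promoters. The match in Psmb6 lies 9 to 1 bases before the start, within the annotated span of that gene. Psmb5 and Psmb9 held a heat shock element, GAANNTTC, found in 2 members and in 6.78% of all promoters. The GC box GGGCGG, in Psmb6 and Psmb9, was found in 20 of 36 members and in 32.9% of all promoters, and the CCAAT box, in Psmb9, in 14 members and in 34.5%. The interferon element, GAAA followed by any 2 bases and GAAA again, was found in Psmb3, Psmd4 and Psmd9 and in 3.04% of all promoters. No matches overlapped in the windows shown. A match describes the letters in the window and is not evidence of binding.

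The 6 ATPases of the base, which unfold the substrate, had a median amplitude of 0.17. Psmc2 had the smallest p of the class, with pools from 198 at CT26 to 324 at CT58 and an amplitude of 0.19 ± 0.09 (limma adjusted p = 0.621). Psmc3 followed with 0.14 ± 0.08 (limma adjusted p = 0.704), from 415 at CT46 to 721 at CT54. Psmc1 was steady between 368 and 475 in 11 pools and read 160 at CT46. For the probe sets used, the upper 95% limit of amplitude was below 0.5 in 4 of the 6 genes, with Psmc1 and Psmc4 as the exceptions.

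Among the 11 non-ATPase subunits of the regulatory particle the median amplitude was 0.12, the lowest being 0.06 and the highest 0.53. Psmd13, a lid subunit, ran from 329 to 403 over all pools. Psmd12, also of the lid, read 106, 106, 104, 66.0, 103 and 108 on the first day and 126, the floor, 78.1, 151, 172 and 212 on the second. Psmd12 had an amplitude of 0.53 ± 0.22 with a peak at 12.1 h (limma adjusted p = 0.579), and its CT18 arrays differed by 0.49 log2. Psmd4, a ubiquitin receptor, ran from 109 at CT46 to 552 at CT26, with an amplitude of 0.37 ± 0.20 (limma adjusted p = 0.686). Psmd14, the deubiquitinase of the lid, ran from 500 to 616.

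The base assembly chaperones, which guide the ATPases into their ring, differed widely in brightness and spread. Psmd9 had an amplitude of 0.22 ± 0.09 with a peak at 22.1 h (limma adjusted p = 0.586), and ran from 452 at CT58 to 780 at CT46. Psmd5 ran from the floor at CT30 to 293 at CT46, and its CT18 arrays read 70.4 and 169. Psmd10 was at the floor in 3 of 12 pools and reached 109, with an amplitude of 0.33 ± 0.24 (limma adjusted p = 0.799).

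Of the activators, which cap the core particle in place of the regulatory particle, Psme3 had the largest fitted amplitude of all members and the largest error. It was at the floor at CT22, CT30 and CT46 and reached 307 at CT50, for an amplitude of 0.85 ± 0.42 peaking at 9.90 h (limma adjusted p = 0.650). Its CT18 arrays read 200 and -151, a difference of 2.44 log2 once the negative reading was set to the floor. Psme1, the alpha subunit of the interferon-inducible activator, ran from 433 at CT42 to 701 at CT58, with an amplitude of 0.15 ± 0.08 (limma adjusted p = 0.686). Psme4, a nuclear activator, ran from 199 at CT30 to 416 at CT62. The brighter probe set shared by Psme2, the partner of Psme1, and Psme2b ran from 696 at CT34 to 1004 at CT30 with a limma adjusted p of 0.723, and the dimmer one was at the floor in 4 pools and reached at most 137. Psme3ip1, a member by name only, had an amplitude of 0.53 ± 0.22 (limma adjusted p = 0.579).

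**Figure D4:**
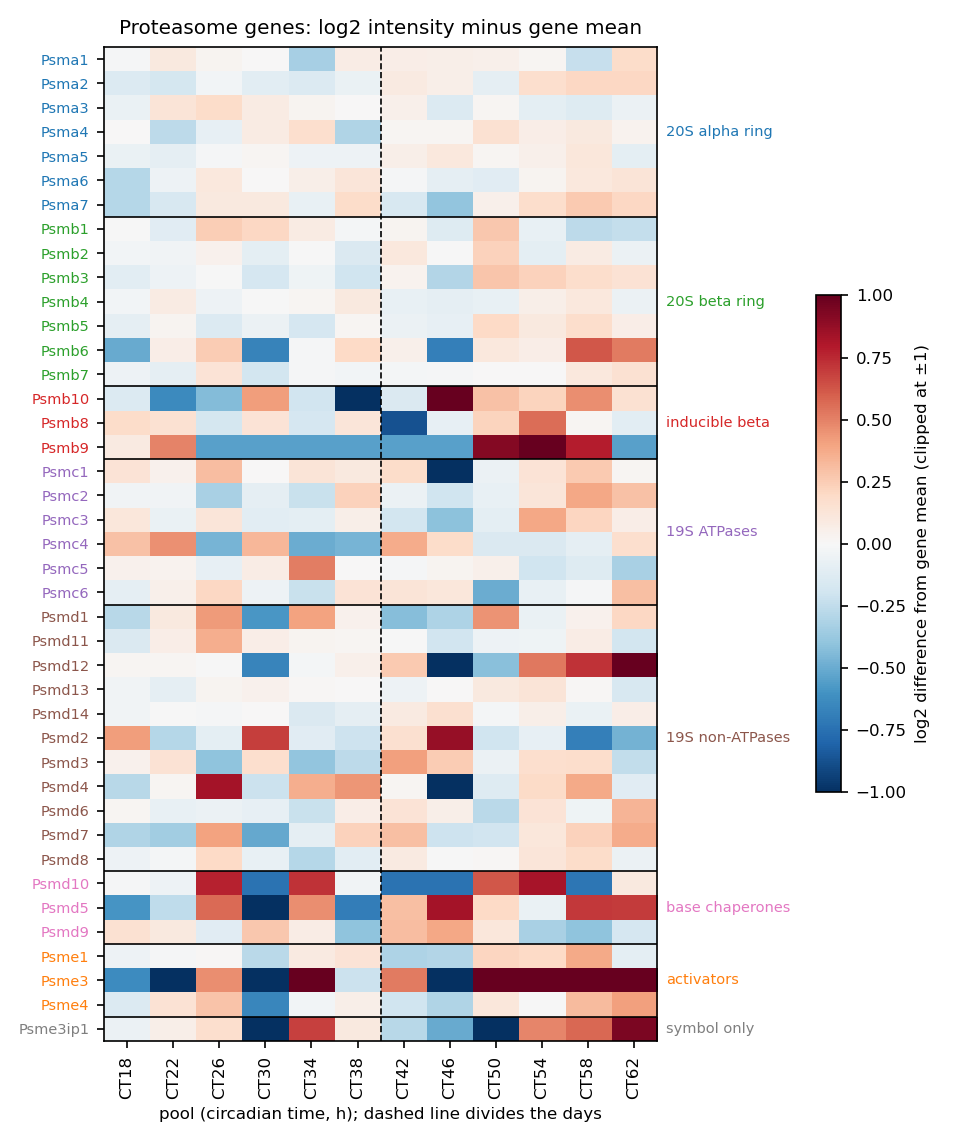
Log2 intensity minus the mean of the gene for each of the 41 proteasome genes (rows, by class) in each of 12 pools (columns, CT18 to CT62); colour shows the difference, clipped at 1 log2 unit either way. Most alpha ring and constitutive beta ring rows are pale, with Psmb6 as an exception, strong colours are found in Psme3, Psmd5, Psmb9 and Psmb10 and at CT46 in Psmc1 and Psmd4, and the columns CT30 and CT46 hold many of the low values.

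The lowest values of the members gathered in a few pools. CT46 was the lowest of the 12 pools in 10 of 41 members, against 9.58% of all genes, and CT30 in 7 members, against 9.21%. Where pools were tied at the floor, the earliest was counted. Psmd10 (floor at CT30, CT42 and CT46) and Psme3ip1 (CT30 and CT50) were so counted for CT30. Psme3 (CT22, CT30 and CT46) was counted for CT22. CT62 was the highest pool in 8 members (7.02% of all genes) and CT58 in 7 (7.6%). The mean profile of the 31 core and regulatory particle genes was lowest at CT46, 0.18 log2 below its mean, and highest at CT58, 0.10 above. CT46 and CT22 are the same circadian time on different days, and at CT22 the profile was at -0.02. Psmc1, Psmd4, Psmd12, Psmb6 and Psma7 were among the genes lowest at CT46, while Psmb10, Psmd2, Psmd5, Psmd9 and Psmd14 were highest there. CT46 was thus the highest pool in 5 of 41 members, against 16.5% of all genes. With arrays centred on their medians, CT46 was the lowest pool in 11 members and CT30 in 15, against 14.6% and 17.9% of all genes. Under quantile normalization CT46 was the lowest in 8 members and CT30 in 8, against 12.3% and 11.1%. The counts and the shares of all genes thus depended on the scaling. The core and regulatory particle profile was lowest at CT46 with median centring (-0.26) and under quantile normalization (-0.21). It was highest at CT62 (0.18) with the former and at CT58 (0.10) with the latter. The non-member genes most like this profile over the 12 pools were Arpc1a (r = 0.951), Smim11 (0.921), Bmi1 (0.918), Gorasp2 (0.913) and Pon2 (0.904), out of 5614 compared.

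How alike the members of a class were differed between classes. The correlation of a gene with the mean of the other members of its class over the 12 pools had a median of r = 0.11 in the alpha ring, 0.55 in the constitutive beta ring, 0.08 in the ATPases, 0.21 in the non-ATPases, 0.43 in the inducible subunits, 0.09 in the base assembly chaperones and 0.65 in the activators, whose 3 genes lay between 0.64 and 0.67. These points share arrays and pools, and are given as a description. Psmb3 was most like its class (r = 0.79) and Psmd2, a dim gene of the base, least (r = -0.82). Of the 7 genes with further probe sets, 5 had others that passed the filter, 7 in number, and their correlation with the probe set used ran from -0.48 (Psmb1) to 0.85 (Psmd11). It was below 0 in 4 of the 7: those of Psmb1, Psmb5 (-0.47) and Psmb4 (-0.41) and 1 of Psmd11 (-0.29). The second Psmb1 probe set had a limma adjusted p of 0.0975 for an amplitude of 0.36, so that the probe sets of Psmb1 disagreed on its time course. What sets them apart was not tested.

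A component of 12-h period was tested beside the 24-h cosine. By limma 0 members passed, as did 0 of all probe sets (0%); at an unadjusted p below 0.05 there were 2 members, against 417 probe sets (5.6%), and the ordinary test with adjustment gave 0 members and 1 probe set (0.0134%). The smallest p was that of Psmd1, the large scaffold subunit of the base, which had an amplitude of 0.36 ± 0.10 (limma unadjusted p = 0.0107, adjusted p = 0.864). Psmd1 read 583 at CT26, 574 at CT34 and 592 at CT50, and 289 at CT30 and 322 at CT42. Psmd3, of the lid, had 0.26 ± 0.08 and Psme4 0.27 ± 0.10, with adjusted p of 0.887 and 0.908 by limma.

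The second day was compared with the first by a day term fitted beside the 24-h cosine. Each circadian time was sampled once on each day, but pools were not paired by circadian time in this fit. By limma 0 members passed, with 0 of all probe sets (0%). At an unadjusted p below 0.05 there were 3 members, all higher on the second day, against 562 probe sets in either direction (7.54%), and the ordinary test gave 0. The fitted difference was above 0 in 27 of 41 members whatever its p, against 43.4% of all probe sets. With arrays centred on their medians it was above 0 in 31 members, and 51.3% of all genes. Under quantile normalization it was above 0 in 26 members, and 48.7% of all genes. Psma2, of the alpha ring, read 1254, 1223, 1359, 1283, 1259 and 1316 on the first day and 1471, 1441, 1301, 1549, 1596 and 1593 on the second. The second day was the higher in 5 of 6 pairs of the same circadian time, the exception being CT26 and CT50, and the days overlapped through that pair. The difference was 0.22 ± 0.06 log2 (limma unadjusted p = 0.00499, adjusted p = 0.589).

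Psmb10 was higher on the second day by 0.75 ± 0.27 log2 in the fit (limma adjusted p = 0.640), in 4 of 6 pairs. That difference was smaller than the 1.30 log2 between its CT18 arrays. Psmd5 was higher by 0.89 ± 0.40 (limma adjusted p = 0.656), in 5 of 6 pairs, against 1.26 between its CT18 arrays. Among the other classes the smallest p belonged to Psmb3 (0.19 ± 0.09), Psmc5 (-0.20 ± 0.11), Psmd3 (0.23 ± 0.14), Psme3 (1.01 ± 0.54) and Psme3ip1 (0.05 ± 0.32), with adjusted p between 0.677 and 0.979 by limma.

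A difference in rhythm between the days was then tested. By limma 0 members passed and 0 of all probe sets (0%), with 5 members at an unadjusted p below 0.05 against 520 probe sets (6.98%), and 0 by the ordinary test. The 5 were Psmb9, Psmb8, Psmc3, Psmd12 and Psme1. For Psmb9 the vector between the daily rhythms had a length of 1.55 ± 0.30 log2 (limma adjusted p = 0.678). Its mean log2 intensity on the first day, 5.48, lay below the filter at 5.60, so that it passed the filter through the pools of the second day, and its values here are a description. Psmb9 had a fitted amplitude of 0.48 on the first day and 1.14 on the second, the latter resting on the 3 pools from CT50 to CT58 above the floor. Psmb8 had 0.12 and 0.55, with a difference of 0.67 ± 0.18 (limma adjusted p = 0.678). Psmc3 had 0.07 and 0.35, with a difference of 0.42 ± 0.12 (limma adjusted p = 0.678). Each daily curve rests on 6 pools.

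Levels were also set against markers of other cell types. For the mean of 12 thymocyte and T cell markers, limma gave 0 of 41 members and 67 of all probe sets (0.899%), markers included. At an unadjusted p below 0.05 there were 2 members and 676 probe sets (9.07%), and the ordinary test gave 0 members and 80 probe sets (1.07%). Psmb8 had the smallest p, with a slope of 0.38 ± 0.10 log2 per log2 unit of the markers (unadjusted p = 0.00216, adjusted p = 0.132 by limma). With the 24-h cosine and sine as covariates the slope was 0.40 and the limma adjusted p 0.0435, the only alternative in which any member passed. Over the 27 alternatives of this test, 45 to 112 of all probe sets passed. Without the CT42 pool the slope was 0.23, with an adjusted p of 0.480 by limma. Psmb8 was lowest in CT42, where the marker mean was also lowest, at -1.24 log2, and highest in CT54, where it was 0.69.

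Of the marker list 16 genes of 20 were on the array and 12 passed the filter, and 7 of these were at the floor in at least 1 pool. Rag1, which marks developing lymphocytes, fell to the floor in the CT26 and CT42 pools and reached 1460 at CT54. Cd8b1 was at the floor in the same pools. Ptcra and Cd4, of the same list, did not follow them. Ptcra read 184 at CT26, against a median of 155, and was lowest at CT58 (73.5). Cd4 read 319 at CT42, against a median of 335, and was lowest at CT62 (156). Of the 12 markers, 7 passed the limma test of a slope on the marker mean, which includes them. Over the 12 pools Psmb8 correlated with the marker mean at Pearson r = 0.76 (permutation p = 0.00153, adjusted p = 0.0138 over 9 relations) and Spearman rho = 0.69 (permutation p = 0.0152, adjusted p = 0.137). Without CT26 and CT42, the pools farthest from the median marker level, r was 0.53 (n = 10, permutation p = 0.110), and the relation did not pass the threshold without those pools. Within the first day r was 0.92 and within the second 0.85 (6 pools each). Psmb9 and Psmb10 had r of 0.24 and 0.02 with the same markers, with adjusted p of 0.856 and 0.942 by permutation. Psmd5 went the other way, with a slope of -0.66 ± 0.30 (limma adjusted p = 0.524), and Psmb2 had -0.10 ± 0.05 (limma adjusted p = 0.609).

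**Figure D5:**
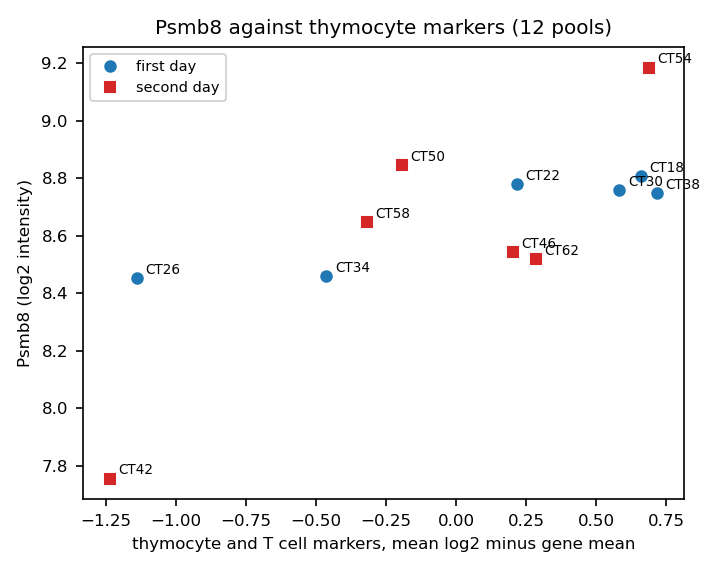
Log2 intensity of Psmb8 (y axis) against the mean centred log2 of 12 thymocyte and T cell markers (x axis) in the 12 pools, labelled by circadian time; circles are the first day and squares the second. CT42 is lowest on both axes and CT54 highest for Psmb8, and the pools between them scatter widely.

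For 16 antigen-presenting leukocyte markers 0 members and 0 probe sets (0%) passed by limma, with 2 members at an unadjusted p below 0.05 against 494 probe sets (6.63%) and 0 by the ordinary test. Those members were Psma2, with a slope of -0.48 ± 0.16, and Psmd7, of the lid, with -0.80 ± 0.34. Psme3ip1 had -1.45 ± 0.75, and the adjusted p of the 3 genes lay between 0.660 and 0.765 by limma. For 14 skeletal muscle markers 0 members passed by limma against 36 probe sets (0.483%), with 1 member at an unadjusted p below 0.05 against 242 probe sets (3.25%) and, by the ordinary test, 0 members and 28 probe sets (0.376%). That member was Psma1, with a slope of -0.13 ± 0.06, ahead of Psmc5 (0.16 ± 0.07) and Psmd8 (-0.09 ± 0.05). Psma1 was lowest (445) and Psmc5 highest (1018) at CT34, the pool richest in skeletal muscle markers, and the adjusted p of these genes was 1.00 by limma. The part of that tissue in these values was not tested further.

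The genes that work with the proteasome were taken from fixed lists. Of 16 measured partners, such as assembly factors, shuttling ubiquitin receptors and the transcription factors that drive subunit genes, 0 passed any of the 7 tests. Nfe2l2, an activator of antioxidant and proteasome genes, had the smallest 24-h p of them, with an amplitude of 0.25 ± 0.08, a peak at 13.8 h and a limma adjusted p of 0.402. Ecpas, a scaffold that binds the proteasome, had the smallest p in any test, with a 12-h amplitude of 0.44 ± 0.12 (limma adjusted p = 0.864). Of 9 genes of class I antigen processing 0 passed. Tap2, a subunit of the peptide transporter whose gene lies beside Psmb8 in the order Psmb9, Tap1, Psmb8, Tap2 on chromosome 17, had the smallest p. It read 57.0 at CT42 and 162, 166 and 161 at CT50, CT54 and CT58, with a rhythm difference between days of 1.10 ± 0.24 (limma adjusted p = 0.678). Psmb8 was also lowest at CT42 and highest at CT54. Tap1, between Psmb9 and Psmb8, was lowest at CT62 (91.3) and highest at CT50 (224). Of 12 interferon-induced genes 0 passed, the smallest p being that of Rsad2 against the antigen-presenting markers, with a slope of 1.72 ± 0.52 (limma adjusted p = 0.660).

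Heat shock genes code for chaperones, which can refold what the proteasome would otherwise degrade. A list of such genes, chosen as cytosolic, was measured in the same pools. It also held Hspe1, which codes for a mitochondrial protein. Of 25 genes measured 2 passed the 24-h test, against 26 of all 7453 probe sets (0.349%). The median amplitude was 0.36 against 0.18 in all genes. Hspa8, the constitutive Hsp70, had an amplitude of 0.69 ± 0.07 with a peak at 17.3 h (limma adjusted p = 0.00255). Hsph1, its nucleotide exchange factor, had 1.07 ± 0.15 with a peak at 17.5 h (limma adjusted p = 0.0222). Hspa8 ran from 2038 at CT30 to 6019 at CT42. The difference between the heat shock and proteasome lists was not tested.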

How the data were processed

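Aortic RNA was measured in 12 pools on 13 arrays. The authors deposited a linear intensity for every probe set of each array. The sources used here do not name their software or scaling. The trimmed mean was 200.2 on every array, and no further scaling was applied. Of 12488 probe sets, 66 controls were left out. The platform annotation gave 1 gene for 10833, several for 396 and did not list 1193. Gene identifiers of 10817 matched RefSeq (GRCm38.p6), with 0 symbols changed. The sources used here do not give the build behind the array's design.

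Intensities below the 20th percentile of positive values (36.7) were set to it and log2 was taken. The CT18 arrays were averaged. Probe sets at or above the 40th percentile of means (log2 5.60, intensity 48.5) were kept, which left 7453. Tests used limma 3.58.1 in R 4.3.3 (eBayes with trend, Benjamini-Hochberg over all kept probe sets, threshold 0.05), with 9 residual degrees of freedom for the 24-h fit, 7 for the 12-h fit, 8 for the day term, 6 for the rhythm difference and 10 for marker slopes. Errors are SE of the fit unless given as SD. Correlations with markers used 100000 permutations, two-sided, in Python 3.11.15. The procedure was tested on simulated data.

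Members and lists were chosen with earlier results of these data known. Named are, in each class, the 2 members with the smallest 24-h p and the 1 with the smallest day p; the inducible subunits, Psme1, Psme2 and the constitutive counterparts; the 3 members with the smallest p in each test; and the passing, or else the first, gene of each partner list. Other members are named for their range or a single pool, chosen after their values were seen. Alternatives changed the floor, normalization, filter, variance model, probe set choice, covariates and the pools included. The number of arrays limits the precision.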

Additional observations from a re-analysis of the deposited data

Results flagged for a closer look

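Within each day of 6 pools, the gap between an extreme pool and its neighbour was compared with the whole range (Dixon's critical value 0.625). Of 86 sets checked 7 exceeded it, or 8.14%, where chance gives about 5%. Psmc1 (160), Psmd4 (109) and Psme3 (36.7, the floor) stood apart as low in CT46 on the second day, with the next lowest pools at 368, 283 and 190. Psmd12 was low in CT30 on the first day, at 66.0 against 103. In CT34, on the first day, Psma1 was low at 445 against 558 and Psmc5 high at 1018 against 752. The dimmer probe set of Psme2 and Psme2b was high in CT54, at 137 against 55.1, with 2 of the other pools of that day at the floor. CT46 thus held 3 of the 7 values. The Psmc1 value in CT46 was below every other pool of either day, which lay between 368 and 475.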

How the results depend on the processing

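In the 24-h test 0 members passed under all 28 alternatives, in which 4 to 40 probe sets passed, and 0 passed under the 28 alternatives of the day test and the 27 of each of the 12-h, rhythm-difference, antigen-presenting and skeletal muscle tests. In the thymocyte test 1 member passed with the 24-h cosine and sine as covariates: Psmb8, with an adjusted p of 0.0435 by limma, where the others gave up to 0.480. Over the 27 alternatives of that test, 45 to 112 of all probe sets passed. Leaving out CT30 and CT46, chosen after seeing the data, gave 0 members in every test. Sizes moved more: of 43 effects of named members, 32 changed by over 1.5 times or turned under at least 1 alternative. The 24-h amplitude ran from 0.14 to 0.50 in Psmd4, from 0.099 to 0.41 in Psmb6 and from 0.043 to 0.19 in Psmc3, and the skeletal muscle slope of Psmc5 from 0.045 to 0.20. Among effects that have a sign, directions turned only in small ones. Amplitudes have no sign, and a shift of their peak was not counted as a turn. The thymocyte slope of Psmb10 (0.02) was -0.087 with a floor at the 30th percentile, -0.036 under quantile normalization, -0.037 with arrays centred on medians, -0.057 without a filter, -0.039 with a filter at the 60th percentile, -0.058 with the actin ratio as a covariate, and -0.12 to 0.24 with a pool or CT18 array left out. The day difference of Psme3ip1 (0.05) was -0.17 with the share of intensities at or below 0 as a covariate, -0.11 with tissue markers as covariates, and -0.20 to 0.21 with a pool left out. The skeletal muscle slope of Psmd8 (-0.09) was 0.0084 with the actin ratio as a covariate. The cause was not tested in any of these.

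No paired analysis was possible because the time points share fewer than 2 replicate numbers; this concerns replicate numbers only. With circadian time as a block in the day comparison, chosen after seeing the data, limma gave 0 members and 0 of all probe sets, with 5 members and 601 probe sets at an unadjusted p below 0.05 and a smallest adjusted p of 0.579 among the members. Dim members (Psmb9, Psmd10, Psme3) are limited by the floor, and only CT18 had a second array.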
